A study of Homo sapiens with 6 samples.

Results

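ANKRD1, CCN1, F3 and SERPINB2 were taken as the rows with these gene names in the authors' deposited table, which gave 4 of its 1099 genes. The first 3 are targets of the transcriptional coactivators YAP and TAZ, F3 and SERPINB2 encode tissue factor and the plasminogen activator inhibitor PAI-2, and the 4 were chosen with the outcome of this comparison known. All 4 were lower in cells kept with F/B extract than in cells kept with vehicle, as were 64.8% of all genes in the table, and SERPINB2 had the lowest ratio of the 4. Because the comparison itself chose them, their levels and fold changes are given as a description, without a test.

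RNA of 6 libraries was compared after 24 h in culture: 3 of cells given F/B extract and 3 of cells given DMSO, the vehicle. By the series title the extract combines broccoli seed with Flos Sophorae Immaturus (pagoda tree buds), and its dose is not given in the sources used here. All libraries carry the same labels for cells and genotype: A549, a lung cancer line, wild type, grown in RPMI-1640 with fetal bovine serum. The library names instead hold AGS, the name of a gastric cancer line. MTAP, which lies in a region deleted in A549, was listed at 48.9 to 55.9 TPM with extract and 56.0 to 60.5 TPM with vehicle. Of 10 gastrointestinal epithelial genes 4 were in the table, with a summed level of 224 to 256 TPM with extract and 327 to 341 TPM with vehicle, and 0 of 6 alveolar genes were. Their part in the results below was not tested. Of 9 fibroblast and endothelial genes 1 was listed, COL1A1, at 10.0 to 14.9 TPM with extract and 12.8 to 15.8 TPM with vehicle, and 0 of 5 leukocyte genes were. These counts stand beside 9.74% of all genes the authors tested, though some marker genes may not have been tested. A marker gene that was not listed, alveolar ones included, may still be expressed in these cells. Since nothing in the labels ties the replicates to separate cultures, the spread behind each p-value may be technical.

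The table is part of the transcriptome. It holds the 1099 genes with the smallest p-values among 11289 that the authors tested, or 9.74% of them, and genes outside it were not analysed here. Estimated counts summed over the listed genes to between 3084337 and 3242553 per extract library and between 3436540 and 4640114 per vehicle library; these sums are not sequencing depth. Levels are given as TPM (transcript abundance corrected for gene length and library total). Fold changes are log2 values of extract over vehicle, from estimated counts put on the scale that the authors' own fold changes imply.

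YAP and TAZ are kept out of the nucleus when the kinases of the Hippo pathway phosphorylate them. In the nucleus they bind TEAD transcription factors, often beside AP-1, and raise genes of adhesion, matrix and the cytoskeleton; ANKRD1 and CCN1 are common readouts of this activity in epithelial and cancer cells. Tissue factor, the cell-surface receptor of coagulation factor VIIa, starts the extrinsic pathway of blood clotting. PAI-2 inhibits urokinase and tissue plasminogen activator, the proteases that turn plasminogen into plasmin.

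The promoters of 3 of the 4 genes are shown because the genes were lower together and because TEAD and AP-1 motifs bear on the YAP/TAZ label. Each window runs from 250 bases before the RefSeq start of the gene to 50 after it, on the gene's own strand in build GRCh38.p14. Capitals mark matches to the TEAD motif CATTCC and the AP-1 motif TGANTCA, searched on both strands. The windows are chr10:90921038-90921337 (minus strand) for ANKRD1, chr1:94541710-94542009 (minus strand) for F3 and chr18:63887455-63887754 (plus strand) for SERPINB2.
ANKRD1: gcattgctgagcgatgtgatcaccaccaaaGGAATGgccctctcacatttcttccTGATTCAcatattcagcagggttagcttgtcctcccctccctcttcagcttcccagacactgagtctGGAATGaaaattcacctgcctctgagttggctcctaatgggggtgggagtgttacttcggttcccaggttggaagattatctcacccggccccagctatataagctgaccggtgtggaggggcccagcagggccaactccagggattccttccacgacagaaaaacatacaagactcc
F3: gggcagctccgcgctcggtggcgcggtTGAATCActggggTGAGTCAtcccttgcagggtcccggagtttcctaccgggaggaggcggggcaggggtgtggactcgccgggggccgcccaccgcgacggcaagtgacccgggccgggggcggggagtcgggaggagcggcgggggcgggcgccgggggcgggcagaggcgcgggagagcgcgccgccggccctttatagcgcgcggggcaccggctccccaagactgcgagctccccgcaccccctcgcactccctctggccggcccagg
SERPINB2: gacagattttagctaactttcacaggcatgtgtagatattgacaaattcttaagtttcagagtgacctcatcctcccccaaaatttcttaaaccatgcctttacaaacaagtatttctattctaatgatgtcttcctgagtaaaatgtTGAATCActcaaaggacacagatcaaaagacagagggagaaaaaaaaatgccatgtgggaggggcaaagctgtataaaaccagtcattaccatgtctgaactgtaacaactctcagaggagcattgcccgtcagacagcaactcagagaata

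The ANKRD1 window holds the TEAD motif at 2 places, at 220 to 215 and at 128 to 123 bases before the start, both on the opposite strand. It also holds 1 AP-1 match, at 195 to 189 bases before the start, which overlaps neither. The F3 window has 2 AP-1 matches close together, at 223 to 217 and 210 to 204 bases before the start, and no TEAD match. The SERPINB2 window has 1 AP-1 match, at 102 to 96 bases before the start, and no TEAD match. All 3 windows therefore hold the AP-1 motif and 1 of them holds the TEAD motif. Among 35116 windows of the same length at RefSeq starts of human genes, 7.71% hold this AP-1 motif and 14% this TEAD motif. A match describes letters in the window and is not evidence that a factor binds there.

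The windows differ in other ways. F3 is the richest in G and C, at 77.3%, and holds the SP1 motif GGGCGG 4 times over both strands, a motif found in 45% of all windows. The ANKRD1 window is at 52.7% and the SERPINB2 window at 39%, with neither holding that motif, against a median of 58.7% over all windows. F3 and SERPINB2 hold TATAAA, in F3 on the opposite strand at 28 to 23 bases before the start and in SERPINB2 at 30 to 25, as do 11.5% of windows. Only that exact string was searched, and the ANKRD1 window holds the variant TATATAA, which was not counted. Motifs for cyclic AMP response (TGACGTCA, in 1.85% of windows) and for serum response factor (the CArG box, in 1.29%) were not in these 3 windows.

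The genes lie on 3 chromosomes. In GENCODE 29 on GRCh38, ANKRD1 (ENSG00000148677) spans chromosome 10, 90912096 to 90921276, and CCN1 (ENSG00000142871, there named CYR61) spans chromosome 1, 85580761 to 85583962. F3 (ENSG00000117525) is on the same chromosome at 94529225 to 94541800, and SERPINB2 (ENSG00000197632) spans chromosome 18, 63871692 to 63903890. All are protein coding, and no annotated gene overlaps ANKRD1, CCN1 or F3. SERPINB10 overlaps the end of SERPINB2 on the same strand, from 63897174, so reads from that stretch could fit either gene. The estimated counts of SERPINB2 were whole numbers in all 6 libraries, so they show no sign of reads divided between genes. Reads given whole to either gene would leave no such sign. The RefSeq starts of the promoter windows are not the ends of these GENCODE spans. The SERPINB2 window lies wholly inside the gene's span, and the ANKRD1 and F3 spans begin upstream of the RefSeq start. Distances before the start therefore hold for the RefSeq start alone.

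Among the nuclear and secreted YAP/TAZ targets, ANKRD1, an ankyrin repeat protein of the nucleus and the sarcomere, was the most abundant of the 4 genes. It was at 297, 255 and 252 TPM in extract replicates 1 to 3, against 397, 410 and 463 TPM in vehicle replicates 1 to 3. Every extract library lay below every vehicle library, and the highest normalised count with extract was 0.737 of the lowest with vehicle. Mean levels were 268 ± 25.3 TPM with extract and 424 ± 35.1 TPM with vehicle (SD, n = 3 each). The log2 fold change from counts was -0.74 (SE 0.09), or 40.2% lower, which placed ANKRD1 at rank 41 of 1099 counted from the lowest. The log2 ratio of mean TPM was -0.66. In bulk RNA, fewer expressing cells and less RNA per cell cannot be told apart.

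CCN1 encodes a secreted matrix-associated protein that binds integrins. It was at 25.3, 31.9 and 33.5 TPM in extract replicates 1 to 3, against 36.5, 38.2 and 40.3 TPM in vehicle replicates 1 to 3. The groups did not overlap, although extract replicates 2 and 3 lay within a few TPM of vehicle replicate 1. Means were 30.2 ± 4.35 TPM with extract and 38.3 ± 1.90 TPM with vehicle (SD, n = 3 each). The log2 fold change from counts of -0.43 (SE 0.08), or 26.0% lower, was the smallest in size of the 4, at rank 118. The log2 ratio of mean TPM was -0.34.

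F3, tissue factor, was at 24.2, 29.9 and 27.7 TPM in extract replicates 1 to 3, against 38.7, 31.4 and 37.1 TPM in vehicle replicates 1 to 3. The extract libraries were all lower, with vehicle replicate 2 close to extract replicate 2 in TPM. Means were 27.3 ± 2.90 TPM with extract and 35.7 ± 3.85 TPM with vehicle (SD, n = 3 each). On the count scale the groups stood further apart: normalised counts were 601, 623 and 595 with extract and 965, 803 and 858 with vehicle. The log2 fold change was -0.53 (SE 0.07), or 30.5% lower, at rank 78, while the log2 ratio of mean TPM was -0.39. TPM per count and length, relative to the library median, ran from 0.897 to 1.03 for F3 over the 6 libraries, from 1.01 to 1.08 for SERPINB2, from 0.902 to 0.918 for CCN1 and from 0.907 to 0.916 for ANKRD1.

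SERPINB2, the inhibitor of plasminogen activators, was the least abundant and had the lowest ratio of the 4. It was at 2.80, 2.78 and 4.38 TPM in extract replicates 1 to 3, against 9.68, 8.68 and 7.16 TPM in vehicle replicates 1 to 3. The groups were well separated, with the highest normalised count with extract at 0.537 of the lowest with vehicle. Means were 3.32 ± 0.918 TPM with extract and 8.51 ± 1.27 TPM with vehicle (SD, n = 3 each). These levels rest on few reads, namely 50, 53 and 75 estimated counts with extract and 189, 227 and 156 with vehicle. The log2 fold change from counts was -1.49 (SE 0.18), a 2.81-fold lower level, and only 1 listed gene had a lower one. The log2 ratio of mean TPM was -1.36.

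**Figure D1:**
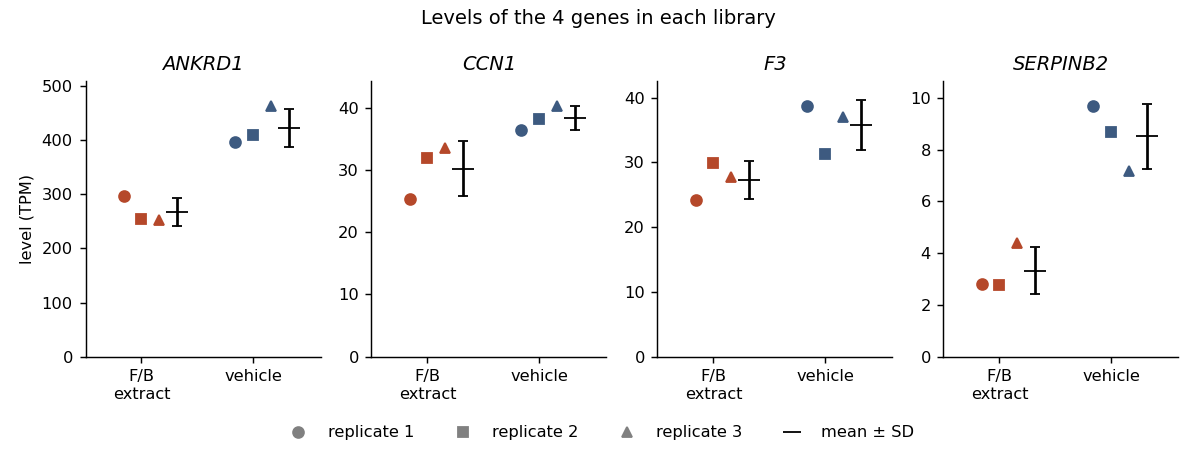
Level in TPM (y axis, from 0, with a scale of its own for each gene) of ANKRD1, CCN1, F3 and SERPINB2 in 3 F/B extract libraries (left in each panel) and 3 vehicle libraries (right). Symbols mark the replicate number and black bars the mean ± SD; in each panel all extract points lie below all vehicle points, most closely for F3 (29.9 TPM with extract against 31.4 TPM with vehicle).

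Ordered by level, ANKRD1 came first, CCN1 and F3 next and SERPINB2 last, in extract and in vehicle libraries alike. CCN1 and F3 did not differ beyond their spread in either group, since their ranges of mean ± SD overlapped. ANKRD1 was at rank 137 of the 1099 listed genes by vehicle TPM, CCN1 at 652, F3 at 675 and SERPINB2 at 998, where the median listed gene was at 53.9 TPM. The relative spread of normalised counts between replicates was 12.9% with extract and 7.99% with vehicle for ANKRD1, 10.7% and 4.58% for CCN1, 2.36% and 9.44% for F3, and 23.2% and 14.9% for SERPINB2.

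The 4 genes did not vary together among replicates of a group. Extract replicate 1 had the highest ANKRD1 and the lowest CCN1 of its group, and extract replicate 3 had the lowest ANKRD1 and the highest SERPINB2. Vehicle replicate 1 had the lowest ANKRD1 and CCN1 of its group and the highest F3 and SERPINB2. With 3 libraries a group, these orders are a description.

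In 4 of 4 genes the groups did not overlap in normalised counts, which was also the case for 63.9% of all listed genes that way round, so it does not set them apart in a table of genes selected on this comparison. Their log2 fold changes can be read against a median of -0.22 over all listed genes and of -0.29 over the 712 listed genes that were lower with extract. The estimates also carry the choice of scale. The 4 other scales raised all log2 fold changes by a median of 0.09 to 0.17, and all 4 genes stayed below 0 under each. Under DESeq2's own factors over the table, which shift most, ANKRD1 was at -0.57, CCN1 at -0.26, F3 at -0.35 and SERPINB2 at -1.32.

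**Figure D2:**
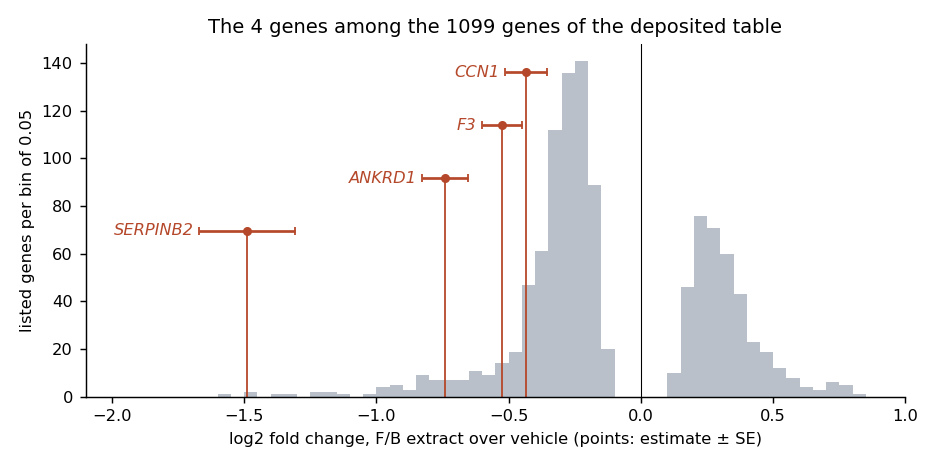
Number of listed genes (y axis) by log2 fold change of F/B extract over vehicle (x axis, bins of 0.05) for the 1099 genes of the deposited table, with the 4 genes marked as points with SE bars (their heights are arbitrary). SERPINB2 at -1.49 lies in the far left tail and CCN1 at -0.43 at the left shoulder of the main body; the gap around 0 comes from the table holding only genes with small p-values.

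**Figure D3:**
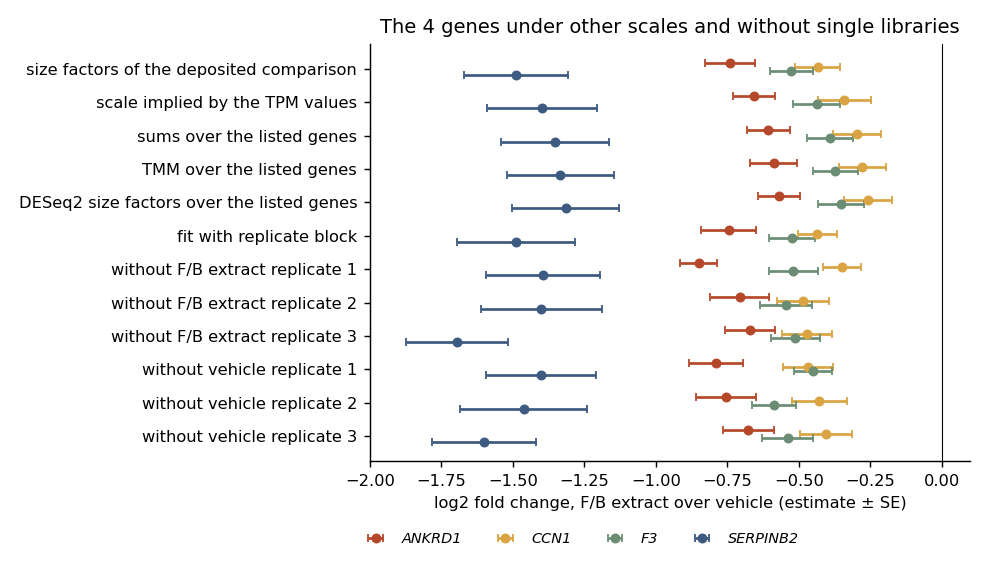
Log2 fold change of F/B extract over vehicle (x axis, estimate ± SE) for the 4 genes (colours) under the size factors used, 4 other scales, a fit with the replicate number as a block, and without each library in turn (rows). All points lie below 0; SERPINB2 ranges from -1.70 to -1.32 and CCN1 from -0.48 to -0.26.

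Of a 22-gene YAP/TAZ target signature, 4 genes were in the table, or 18.2%, beside 9.74% of all genes the authors tested. ANKRD1, CCN1 and F3 are 3 of the 4 and had been chosen for being there, so the share is not independent evidence. The fourth was MYOF, a membrane repair protein, at 200 ± 3.18 TPM with extract and 216 ± 9.42 TPM with vehicle (SD, n = 3 each). MYOF fell (log2 fold change -0.18, SE 0.04, edgeR adjusted p = 0.0312), a call lost on all 4 other scales, with the replicate block and without extract replicate 2, extract replicate 3, vehicle replicate 2 or vehicle replicate 3. The other 18 signature genes, among them CCN2, AXL, AMOTL2, LATS2 and PTPN14, were not listed. The authors may not have tested all genes of this list or of the lists below. Shares over whole lists are therefore not on the same base as the 9.74%.

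Of 29 genes for the Hippo kinases and adaptors, YAP, TAZ and the TEAD factors, 1 was listed, beside 9.74% of all genes tested. That gene was SAV1, the scaffold that joins the MST kinases to LATS, at 118 ± 8.98 TPM with extract and 138 ± 2.12 TPM with vehicle (SD, n = 3 each). SAV1 fell (log2 fold change -0.32, SE 0.04, edgeR adjusted p = 0.00372), a call lost when TMM, DESeq2 or plain sums over the table set the scale. YAP1, WWTR1 (the gene of TAZ) and TEAD1 to TEAD4 were not listed. Of 10 genes of AP-1 subunits 1 was listed, FOSL1, which fell by 0.28 (SE 0.06, edgeR adjusted p = 0.0260). That call was lost on all 4 other scales, with the replicate block, and without extract replicate 2, extract replicate 3, vehicle replicate 2 or vehicle replicate 3.

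F3 was 1 of 2 listed genes among 26 of coagulation, or 7.69%, beside 9.74% of all genes the authors tested. The other, FGA, the fibrinogen alpha chain, was in the opposite direction, at 19.9, 16.9 and 14.8 TPM in extract replicates 1 to 3, against 11.1, 11.4 and 11.1 TPM in vehicle replicates 1 to 3. FGA rose (log2 fold change 0.53, SE 0.13, edgeR adjusted p = 0.0350), where 29% of listed genes were called higher. Its call was lost with the replicate block and without any 1 library except extract replicate 3. TFPI, which inhibits the tissue factor complex, THBD and the protease-activated receptors were not listed. Some of the 26 may not have been among the genes tested.

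SERPINB2, itself chosen for being listed, was 1 of 3 listed genes among 15 of plasminogen activation, or 20%, beside 9.74% of all genes tested. ANXA2, a cell-surface plasminogen receptor subunit, was at -0.21 (SE 0.07) and missed the threshold (edgeR adjusted p = 0.184). LRP1, the endocytic receptor that clears complexes of plasminogen activators with their inhibitors, rose to 9.90 ± 0.710 TPM with extract, against 7.50 ± 0.837 TPM with vehicle (SD, n = 3 each). Its log2 fold change was 0.29 (SE 0.07) and its edgeR adjusted p was 0.0305. The call of LRP1 was lost with the replicate block and without extract replicate 2, vehicle replicate 1 or vehicle replicate 2. PLAU, PLAT and PLAUR were not listed. By family, SERPINB2 was the only listed gene of 13 clade B serpins, CCN1 of 6 CCN genes and ANKRD1 of 3 muscle ankyrin repeat genes. None of 13 integrin genes, which include receptors of CCN1, was listed. In lists this short a single gene moves the share widely, so these counts are a description.

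Of 25 genes of the actin cytoskeleton and other targets of serum response factor (SRF), many encoding parts of stress fibres, 12 were in the table. That is 48%, beside 9.74% of all genes the authors tested, and the highest share of the 10 pathway lists. The lists were chosen with earlier results of these data known, so this share is not independent evidence. All 12 were lower with extract, as were 64.8% of all listed genes, with a median log2 fold change of -0.25, beside -0.22 over all listed genes. By edgeR's quasi-likelihood test 9 of the 12 were called lower. Over the table, 53% of all listed genes, and 582 of the 712 that were lower with extract, were called lower. TAGLN, an actin-binding protein, fell to 231, 268 and 319 TPM in extract replicates 1 to 3, against 389, 449 and 403 TPM in vehicle replicates 1 to 3. It stood at -0.65 (SE 0.05), with an edgeR adjusted p of 0.000262. The myosin light chain MYL9 was at -0.53 (SE 0.05), and the LIM protein FHL2 at -0.44 (SE 0.08), and both passed. ACTB and ACTG1, the cytoplasmic actins, were at -0.31 and -0.28, MYL12A at -0.27, TPM1 at -0.23, CNN2 at -0.20 and TPM4 at -0.18, all past the threshold. ACTN4 and SRF at -0.20 and FLNA at -0.19 missed it (edgeR adjusted p = 0.0912, 0.0646 and 0.170). Instead of 9 calls there were 2 by TMM and 3 by each of the other scales, 4 with the replicate block, 4 when extract replicate 2 was left out, 3 when vehicle replicate 2 was and 4 when vehicle replicate 3 was. Calls numbered 6 when extract replicate 3 was left out and 11 by the DESeq2 test, by which ACTN4 passed (adjusted p = 0.0226). They numbered 12 when p-values were adjusted over the listed genes alone, which makes adjusted values smaller. TAGLN and MYL9 passed in all 16 other settings.

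**Figure D4:**
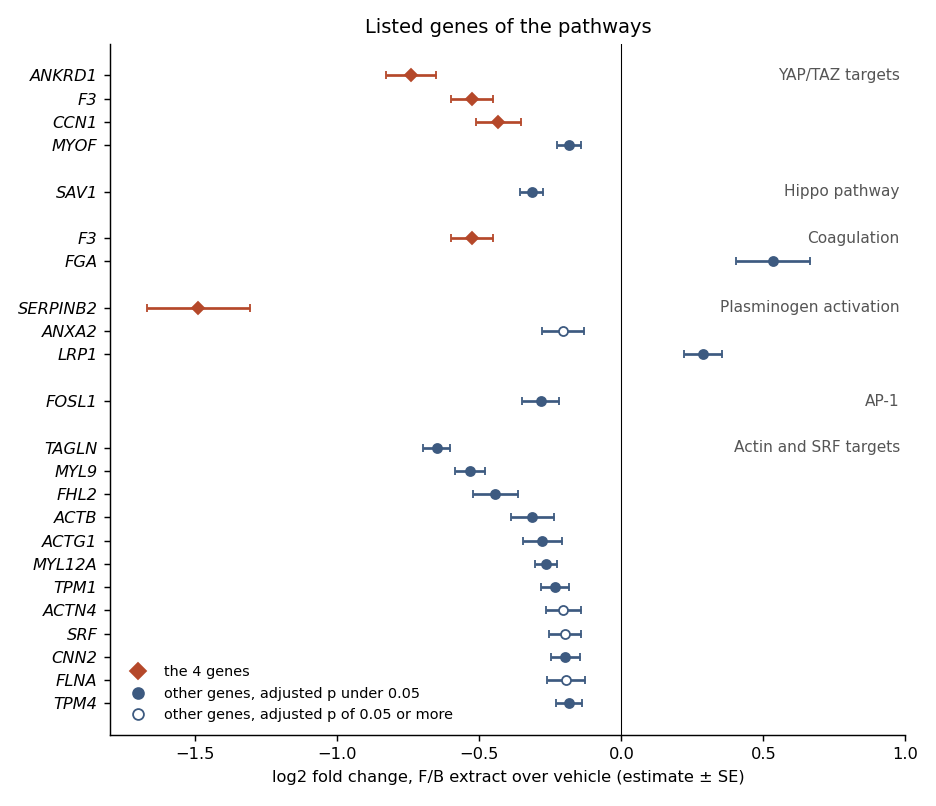
Log2 fold change of F/B extract over vehicle (x axis, estimate ± SE) for the listed genes of 6 pathway lists (rows, grouped); red diamonds are the 4 genes, blue circles the others, open where the edgeR adjusted p was 0.05 or more. All 4 YAP/TAZ targets and all 12 actin and SRF target genes lie left of 0, while FGA and LRP1 lie right of it at 0.53 and 0.29.

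The listed genes with the most similar profiles were found by the mean absolute difference, over the 6 libraries, in log2 normalised count relative to the gene's own vehicle mean. The search covered 1034 listed genes with a symbol and at least 5 TPM in either group. Nearest to ANKRD1 were the lipid transporter MFSD2A (0.07), the RNA-binding protein SAMD4A (0.07) and the arginine synthesis enzyme ASS1 (0.07). Nearest to CCN1 were the RNA gene MYHAS (0.05), the kinase BRSK1 (0.06) and the zinc finger gene ZNF232 (0.06). F3 was nearest to LYAR (0.06), NOP16 (0.07) and GAR1 (0.07), genes of the nucleolus. SERPINB2 had no near neighbour: the hair keratin KRT81 (0.21), the galectin LGALS7B (0.23), whose reads can be shared with its near-identical copy, and ID3 (0.29) came closest. The 4 genes were further from each other, at 0.14 between CCN1 and F3 and at 0.19 or more for the other pairs. Each neighbour was the closest of 1034 genes, while the 4 were compared only with each other, so this order was likely in advance. The distance also holds the difference in fold change, a value on which the 4 were chosen.

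The annotation deposited with the table gave ANKRD1 34 Gene Ontology terms, CCN1 39, F3 23 and SERPINB2 10. No term was shared by more than 2 of the 4. CCN1 and F3 shared positive regulation of cell migration, a term of 21 listed genes, and collagen-containing extracellular matrix, a term of 18. CCN1 and SERPINB2 shared negative regulation of apoptotic process, a term of 33. The remaining shared terms were broad locations. F3 and SERPINB2 shared extracellular space, a term of 70, and plasma membrane, a term of 184, and ANKRD1 and SERPINB2 shared cytoplasm, a term of 343.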

How the data were processed

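Poly(A) RNA of 6 libraries was compared, 3 per group; groups and replicate numbers come from sample titles and columns were matched through library names. The authors deposited estimated counts and TPM per library for 1099 genes, on GRCh38.p13 per the submitters' processing notes; no source used here names the aligner, counter or annotation. The authors' comparison, by DESeq2 per the table's name, gives the fold as a ratio, its log2 and p-values, per the file headers; its log2 sign is vehicle over extract and was turned round.

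The number of genes tested, 11289, follows from how the deposited adjusted p-values relate to the raw ones (largest relative error 0.00445). Counts, of which 31.8% to 35.9% per library were fractional, were rounded. Scaling over listed genes would centre on genes selected as changed, so libraries were scaled by size factors solved from the deposited log2 fold changes (largest difference 0.00131). They were 0.920, 0.959 and 0.935 for extract replicates 1 to 3 and 0.940, 1.23 and 1.05 for vehicle replicates 1 to 3. edgeR's quasi-likelihood test (edgeR 4.0.16, R 4.3.3) was fitted over all listed genes with Benjamini-Hochberg adjustment over 11289 and a threshold of 0.05; SE is the absolute log2 fold change over the square root of F. The edgeR filter removed 0 genes. Since all listed genes were selected for small p-values, the estimated spread and the p-values may be too small. DESeq2 1.42.0, limma 3.58.1 (voom), other scales, filters, the replicate block and leaving out each library were alternatives. No pair of libraries agreed within sampling noise (chi-square per degree of freedom of at least 4.59).

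The 4 genes and the gene lists were chosen with earlier results of these data known. Named genes are the 4, every listed gene of the pathway lists, and for each of the 4 the 3 most similar profiles. Promoter sequences are from RefSeq (GRCh38.p14), matched by symbol for 3 of the 4 genes.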

Additional observations from a re-analysis of the deposited data

How the results depend on the processing

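No log2 fold change of a named gene changed sign under any of the settings tried. Most calls over the table were lower on the scale used, and most were higher on the 4 other scales. That change came mainly from the loss of lower calls. On other scales ANKRD1 was at -0.59 by TMM and -0.57 by DESeq2's factors, both over the table. CCN1 was at -0.28 and -0.26 under these and at -0.30 with sums. F3 was at -0.37 and -0.35, at -0.39 with sums, at -0.39 as the log2 ratio of mean TPM and at -0.38 as the difference of mean log2(TPM + 1), and SERPINB2 was at -1.15 by this last measure. Leaving out each library in turn gave -0.85 to -0.67 for ANKRD1, -0.48 to -0.35 for CCN1, -0.59 to -0.45 for F3 and -1.70 to -1.39 for SERPINB2.

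Over the table, 582 genes were called lower and 319 higher, so that lower calls were the majority. Lower calls numbered 87 by TMM, 86 by DESeq2's factors, 126 by sums and 197 on the TPM scale, and higher calls 385, 387, 386 and 372. Single libraries left out gave 128 to 569 lower and 50 to 287 higher, the lowest of each without vehicle replicate 2. Of the 10 pathway lists together, 16 genes were called lower and 2 higher. The 16 include ANKRD1, CCN1, F3 and SERPINB2, which had been chosen on this comparison, so the count is not independent evidence. The 16 became 5 with TMM, 6 with DESeq2 size factors, 6 with sums and 7 on the TPM scale. Without single libraries the 16 became 7 to 17 and the 2 became 0 to 2. Calls in the YAP/TAZ signature, 3 of whose 4 listed genes had been chosen on this comparison, were 2 on each of these scales and 2 to 4 without single libraries. Actin calls were 2 with TMM and 3 on each other scale, and 3 to 9 without single libraries. Other filters, DESeq2 and limma-voom moved none of these counts by over 1.5 times.

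No pairing by replicate number was seen. Same-numbered libraries correlated at -0.23, -0.01 and -0.03 across listed genes in their deviations from group means, and 0 of 6 libraries correlated best with their own number. Deviations from the mean of 3 libraries sum to 0, which holds such correlations near 0 on average, so this check cannot exclude pairing. With the replicate block, 229 genes were called lower and 88 higher, 9 and 0 in the pathway lists, 4 in the actin list and 3 in the YAP/TAZ signature. With few reads, 50 to 227 per library, SERPINB2 is the least precise of the 4 genes.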

Other observations

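The CArG box, the motif of serum response factor, was counted in the same promoter windows for all listed genes with a window. It was in a window of 26 of 564 genes lower with extract (4.61%) and of 3 of 308 genes higher with extract (0.974%), beside 438 of 27305 genes in all (1.6%). The list of actin cytoskeleton genes and SRF targets was put together partly from known targets of this factor, and 6 of its 9 listed genes with a window held the motif, which is not independent of that choice. The TEAD motif was in windows of 16.3% of lower and 17.9% of higher genes, beside 16.7% of all, and the AP-1 motif in 8.16% and 11%, beside 9.37%. The cyclic AMP response motif leaned the same way as the CArG box, at 3.9% and 1.95%, beside 2.25%. The SP1 motif was in 69% and 77.3%, beside 48.3%, and TATAAA in 10.6% and 9.09%, beside 14%. Listed genes of both directions thus differed from all genes in promoter makeup, so all genes are not a matched background. These shares were looked at after the values were seen and are a description, with no test.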
